A study of Mus musculus with 4 samples.

Results

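The genes described here are the chemokines and chemokine receptors, small secreted attractant proteins and the G protein-coupled receptors that read them, in mouse testis cells enriched for spermatogonia. Members were taken by gene symbol, as entries whose name begins with Ccl, Cxcl, Cx3cl, Ccr, Cxcr or Ackr and a number, which gave 60 of 43998 entries of the table, with no symbol repeated. They comprise 39 ligands, among them 2 Ccl19 pseudogenes, and 21 receptors. The entries of Ackr1 and Ccr9 also hold another gene (Cadm3 and Gm17200), so these 2 members have no value of their own.

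RNA had been sequenced from testis cells of C57BL/6 mice at postnatal day 4, enriched with magnetic beads that carry an antibody to CD90.2, the THY1 surface protein of undifferentiated spermatogonia. Of 4 libraries, 2 were labelled control and 2 were labelled as mutant for retinoic acid signalling in germ cells, and the labels name neither the modified gene nor the promoter that drives the change, nor any allele that the controls carry. The question was which transcripts differ when early spermatogonia have impaired retinoic acid signalling. The deposited table holds 1 RPKM value (the read count divided by transcript length and sequencing depth) per gene and genotype, with both libraries combined, so no difference below has a spread between replicates, an SD or a p-value.

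The labelled cell type was checked on marker genes. All 30 germ cell genes on the list used were at 1 RPKM or more in either genotype, with the germ cell RNA helicase Ddx4 at 88.6 RPKM in control against 114 RPKM in mutant. Markers of other testis cells were present too, and the macrophage genes summed to 5425 RPKM in control against 2024 RPKM in mutant over 19 genes. The 30 germ cell genes summed to less in both genotypes, 1411 RPKM in control against 1789 RPKM in mutant. Low values stepped in whole reads, which placed the depth near 56.3 M reads in control and 57.3 M in mutant if no further scaling entered the values. Intervals given for a ratio below are 95% binomial intervals on the reads read back in this way, cover counting error only, and are approximate for genes with several transcripts. A floor of 3 reads in a transcript of 1 kb corresponds to 0.0674 RPKM in control against 0.0663 RPKM in mutant, the limit below which a value is not told from 0.

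Chemokines are grouped by the spacing of their first cysteines into CC, CXC and CX3C families, and most act on leukocytes, guiding monocytes, neutrophils, eosinophils or lymphocytes to a tissue. CXCL12 and its receptor CXCR4 stand apart: they guide germ cells to the gonad in the embryo, and in the postnatal testis CXCL12 from Sertoli cells acts on CXCR4 of undifferentiated spermatogonia as a signal of the stem cell niche. Atypical receptors of the Ackr group bind chemokines without G protein signalling and remove them.

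Upstream sequences of 4 members are shown to set the niche pair beside a leukocyte ligand with a lower mutant value (Ccl9) and one with nearly equal values (Cxcl2). Each is the 250 bases before the transcription start, 5′ to 3′ on the strand of the gene, from RefSeq on GRCm38.p6: Cxcl12 at chr6:117168285-117168534 (plus strand), Cxcr4 at chr1:128592300-128592549 (minus strand), Ccl9 at chr11:83578637-83578886 (minus strand) and Cxcl2 at chr5:90903649-90903898 (plus strand). Capitals mark matches to the motifs listed after the sequences.
Cxcl12: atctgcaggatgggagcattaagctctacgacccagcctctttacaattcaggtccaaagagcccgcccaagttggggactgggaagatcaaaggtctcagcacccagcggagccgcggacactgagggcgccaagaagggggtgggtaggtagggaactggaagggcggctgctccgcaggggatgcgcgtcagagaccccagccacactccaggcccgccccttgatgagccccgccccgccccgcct
Cxcr4: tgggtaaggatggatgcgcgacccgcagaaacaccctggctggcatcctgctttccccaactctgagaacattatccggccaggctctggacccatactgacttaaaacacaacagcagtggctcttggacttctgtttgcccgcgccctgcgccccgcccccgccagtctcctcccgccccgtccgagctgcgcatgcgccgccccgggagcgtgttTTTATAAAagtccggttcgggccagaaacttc
Ccl9: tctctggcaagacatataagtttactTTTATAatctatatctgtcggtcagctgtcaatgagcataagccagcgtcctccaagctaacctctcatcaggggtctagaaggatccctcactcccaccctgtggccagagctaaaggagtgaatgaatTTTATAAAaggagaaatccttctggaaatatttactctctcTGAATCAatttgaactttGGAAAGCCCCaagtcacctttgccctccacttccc
Cxcl2: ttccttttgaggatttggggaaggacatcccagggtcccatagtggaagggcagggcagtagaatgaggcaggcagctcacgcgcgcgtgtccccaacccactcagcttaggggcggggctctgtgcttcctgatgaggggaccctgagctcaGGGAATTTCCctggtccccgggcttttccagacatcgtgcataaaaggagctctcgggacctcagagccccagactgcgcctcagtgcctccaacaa

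Motifs were searched on both strands of the 300-base window from 250 bases before to 50 bases after the start, for 43 of 60 members and 27025 genes in all. Among the entries not matched were Ccl2, Ccl4, Ccl5, Ccl7, Ccl11, Ccl24, Ccl26, Ccr7, Ccr10, Cxcl5, Cxcl11, Cxcl16, Cxcl17, Cxcr5 and both Ccl19 pseudogenes. The NF-kB motif, searched by its usual consensus, was found for 11 of 43 members and for 6.55% of all genes. Among those 11 were Ccl9, Cxcl1, Cxcl2 and Cxcl10, and neither Cxcl12 nor Cxcr4 was among them. TATAAA was found for 14 members and 15.7% of all genes, TGANTCA (AP-1) for 9 members and 8.97%, the core of the interferon-stimulated response element for 3 members and 3.99%, and GAGGAAGT (PU.1) for 1 member and 3.69%. Retinoic acid response elements of the DR5 and DR2 types were found in no member window and in 0.115% and 0.311% of all genes. Only 4 of the members 2-fold lower had a window, and Ccl9 was the only 1 of them with an NF-kB, TATAAA or TGANTCA match. Of 21 other members with a window and 1 RPKM or more, 5 held the NF-kB motif, 7 TATAAA and 2 TGANTCA. The windows shown for Ccl9 and Cxcl2 therefore do not stand for lower and unchanged ligands in general. In Ccl9 the capitals mark TATAAA on either strand (in places overlapping), TGAATCA and the NF-kB match, in Cxcl2 the NF-kB match, and in Cxcr4 overlapping TATAAA matches on both strands. A match is a description of letters, not a site of binding. The windows of Cxcl12 and Cxcr4 held 20 CpG dinucleotides each, against a median of 4 over the 41 other members with a window and 8 over all genes, though Ccl25 (52), Ccl21b (45) and Cxcl14 (22) held more.

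Of the 60 members, 31 with a value of their own reached 1 RPKM in either genotype and were compared, as were 16473 genes of the table. Differences are given as the log2 of mutant RPKM + 1 over control RPKM + 1, which shrinks the difference of low genes, and a gene was counted at 2-fold or more on it. By this rule 9 of the 31 members were lower in the mutant and 0 were higher. The background was 4.35% lower and 4.40% higher over all genes compared, and 4.07% lower and 1.31% higher over 12198 protein-coding genes. Of all genes past the rule 49.7% were lower, and 81.9% were after the mutant values were rescaled to a median difference of 0 in the germ cell list. Below 0 lay 23 of the 31 members, with a median of -0.58. Over all 16473 genes compared 8175 lay below 0, with a median of 0.0048. Over the 12198 protein-coding genes 6799 did, with a median of -0.064. Through their control value alone 2 members entered the comparison (Ccl21a and Ackr3), and through the mutant value alone 1 did (Ccl1), so these had to differ and the counts describe the members without testing them.

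**Figure D1:**
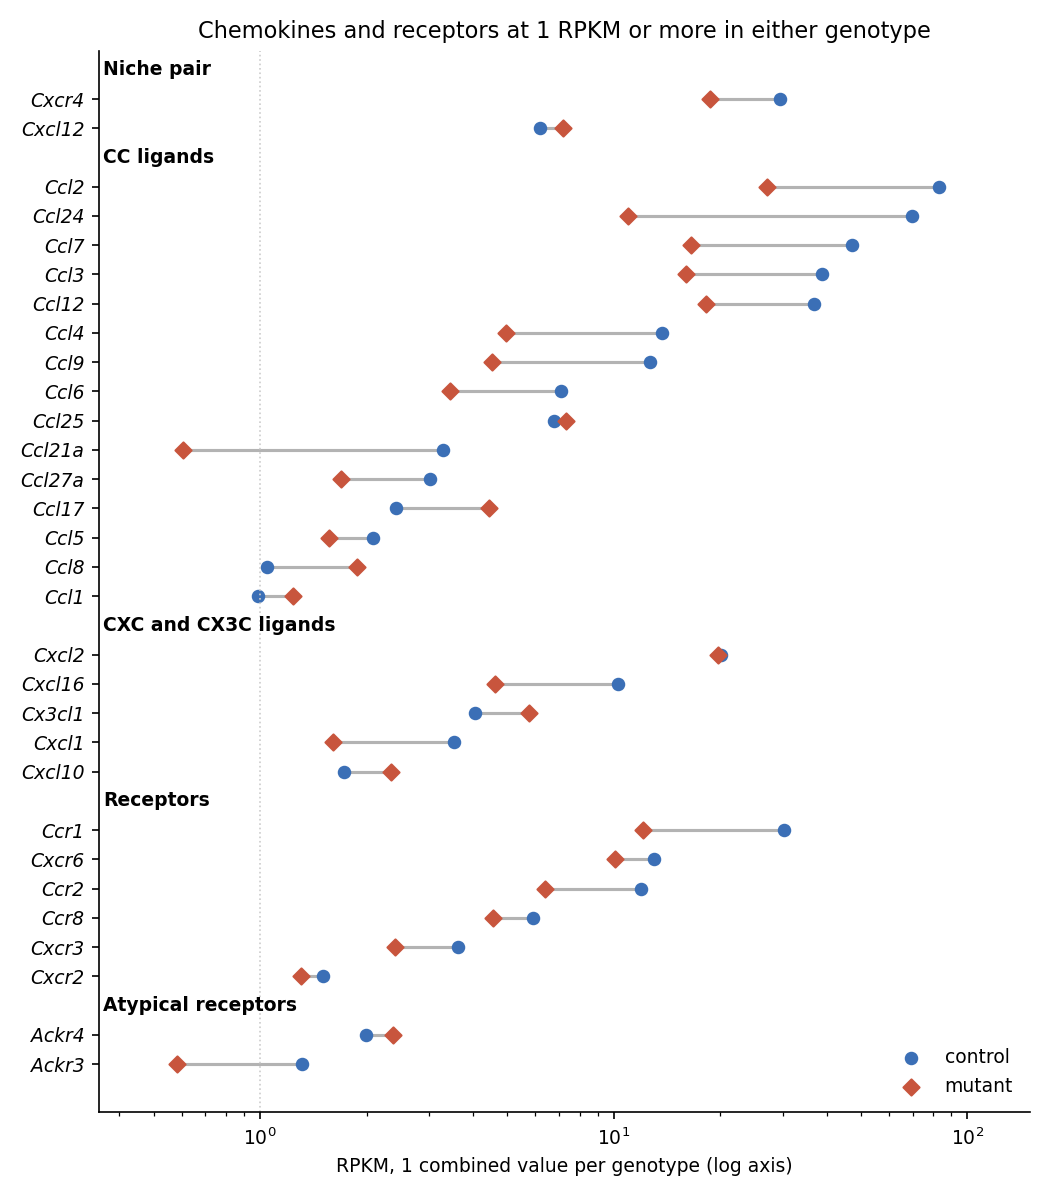
RPKM of 30 of the members compared (log axis), with 1 combined value per genotype as a circle for control and a diamond for mutant, joined by a grey line. Most CC ligands and receptors had their mutant value to the left of control, while Cxcl12, Ccl25, Ccl17, Ccl8, Ccl1, Cx3cl1, Cxcl10 and Ackr4 had it to the right (for Cxcl12, Ccl25, Cxcl10 and Ackr4 this turned after rescaling to the germ cell list).

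The niche pair split in direction. Cxcl12, on chromosome 6 from 117168535 to 117181367 in GRCm38, was at 6.20 RPKM in control against 7.17 RPKM in mutant. The mutant value was 1.16-fold higher (95% counting interval of the ratio 1.09 to 1.23), a log2 difference of 0.18 that became -0.21 after rescaling to the germ cell list. Cxcr4, on chromosome 1 from 128588199 to 128592293, was at 29.6 RPKM in control against 18.7 RPKM in mutant. Its mutant value was 1.58-fold lower (ratio 0.631, interval 0.594 to 0.671), a log2 difference of -0.64 that did not reach the 2-fold rule, and it passed that rule at -1.07 after the same rescaling. Among the 10 receptors compared, Cxcr4 ranked second in control and first in mutant. Thus neither gene of the pair met the 2-fold rule on the deposited values, and the receptor was the more abundant of them per length in both genotypes.

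Ackr3, the scavenging receptor that takes up CXCL12, was at 1.31 RPKM in control against 0.582 RPKM in mutant. The ratio was 0.444 (interval 0.345 to 0.569), and on the log2(RPKM + 1) scale the difference was -0.55. Sertoli cell markers, from cells known to make CXCL12, lay below 0 for 12 of 15 genes with a median of -0.79, and their sum went from 469 to 288 RPKM. Other cells could hold Cxcl12 too. Endothelial genes had a median of 0.13, with 6 of 11 above 0, and interstitial fibroblast genes a median of -0.67. Germ cell genes, from the cells known to carry CXCR4, had a median of 0.46 with 23 of 30 above 0. They did not move as 1 group: 3 were at least 2-fold lower, among them Gfra1 (-1.28) and Sall4 (-1.23), and 1 was at least 2-fold higher, Zbtb16 (1.11). These are markers of undifferentiated spermatogonia, and other such genes also lay on both sides of 0. Etv5 was at -0.65, Nanos2 at 0.54 and Id4 at 0.50. Leukocytes carry CXCR4 too, and the macrophage median was -1.30. Cxcl12 thus differed in sign from the Sertoli and interstitial fibroblast medians and shared its sign with the endothelial median. Cxcr4 differed in sign from the germ cell median and shared its sign with the macrophage median. Neither differed in sign from every gene of the Sertoli or germ cell list. After rescaling Cxcl12 no longer differed in sign from the Sertoli median, with -0.21 beside -1.19. The germ cell median was then 0 by construction. The part of cell makeup in these values was not tested. In RNA from a mixed sample, fewer cells of a type and less RNA per cell cannot be told apart.

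Among the other ligands, the 20 that reached 1 RPKM had a median below both genes of the niche pair, and over all ligands with no filter on low values the median lay above Cxcr4, at -0.054. Of the 20 compared, 8 were at least 2-fold lower, 14 lay below 0, and that median was -0.83. Inflammatory CC ligands, which draw monocytes, eosinophils and T cells, made up most of this: 6 of 11 were 2-fold lower, with a median of -1.23 and a sum of 313 RPKM in control against 106 RPKM in mutant. Macrophage markers, from cells that both make and respond to these ligands, were lower for all 19 genes, 17 of them by 2-fold, with a median of -1.30 and a range from -1.64 to -0.53. That list holds Cx3cr1, itself a chemokine receptor, and none of its genes was at 0. Its part in the ligand values was not tested.

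**Figure D2:**
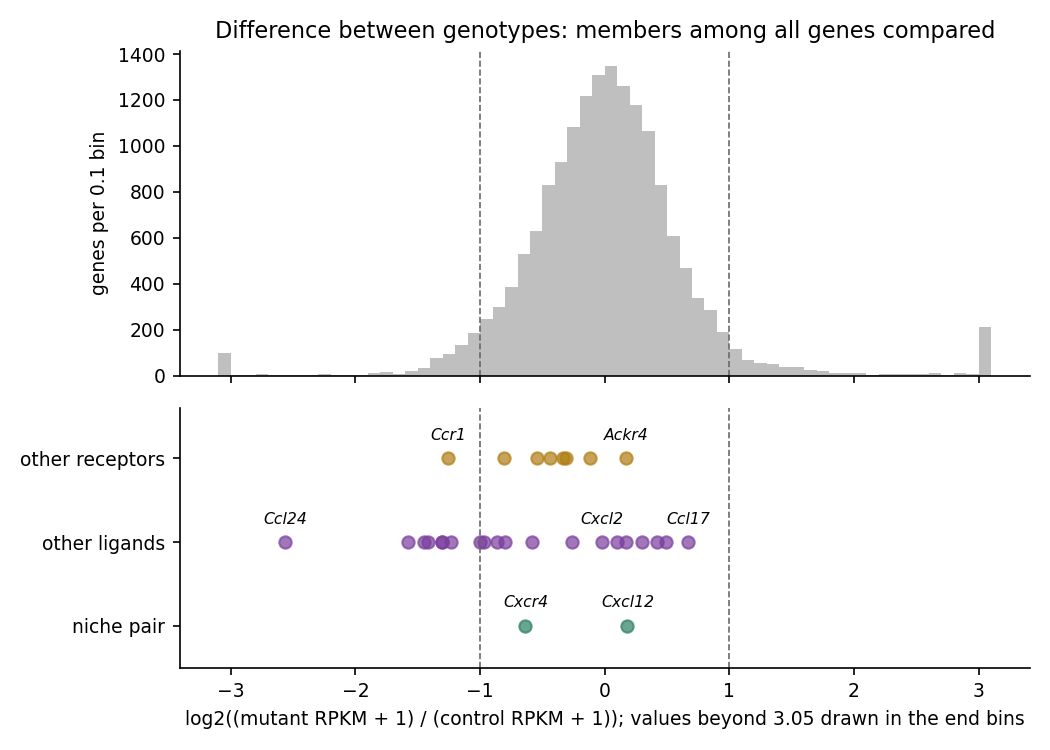
Upper panel: number of genes per bin of 0.1 in log2 difference (mutant against control) for the 16473 genes compared, with more extreme values in the end bins. Lower panel: 30 of the members compared as points, in 3 rows for the niche pair, 20 other ligands and 8 other receptors, with dashed lines at 2-fold; Ccl24 lies farthest to the left at -2.57 and Ccl17 farthest to the right at 0.67.

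Ccl24, or eotaxin-2, which attracts eosinophils through CCR3, had the largest difference of any member. It was at 69.8 RPKM in control against 10.9 RPKM in mutant (chromosome 5, 135569937 to 135573049), 6.37-fold lower with a ratio of 0.157 (interval 0.145 to 0.170). Its log2 difference of -2.57 ranked 114 from the lowest among all genes compared. The lowest macrophage marker was at -1.64. Mast cell genes had a median of -2.37 and a wide range, from -3.92 to -0.58, that also holds Ccl2 at -1.58. The part of either cell type in the Ccl24 value was not tested. Ccr3, the eotaxin receptor, did not reach 1 RPKM and was at 0.883 RPKM in control against 0.256 RPKM in mutant, a ratio of 0.290 (interval 0.204 to 0.408). The other eotaxins were scarce, with Ccl11 at 0.143 and 0.259 RPKM and Ccl26 listed at 0 in both genotypes.

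Ligands of CCR2, the receptor that brings monocytes into tissues, were among the most abundant members. Ccl2 (chromosome 11, 82035571 to 82037453) was at 83.0 RPKM in control against 27.1 RPKM in mutant, 3.06-fold lower (ratio 0.326, interval 0.303 to 0.351). Ccl7 was at 47.0 and 16.5 RPKM, 2.84-fold lower. The third, Ccl12, was at 36.8 and 18.3 RPKM, 2.02-fold lower. On the log2(RPKM + 1) scale its difference of -0.97 fell just short of the 2-fold rule. Ccr2 itself was at 11.95 RPKM in control against 6.40 RPKM in mutant, 1.87-fold lower with a log2 difference of -0.81. All 4 genes of this axis thus had lower mutant values, the ligands Ccl2 and Ccl7 by more than the receptor.

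CCR1 binds several ligands of the macrophage inflammatory protein group. Ccl3 was at 38.9 RPKM in control against 16.0 RPKM in mutant, and Ccl4 at 13.7 and 4.95 RPKM, with log2 differences of -1.23 and -1.30. Ccl9 was at 12.7 and 4.53 RPKM (-1.30) and Ccl6 at 7.10 and 3.44 RPKM (-0.87), both rodent ligands of CCR1. Ccl5, or RANTES, a product of T cells and other leukocytes, was low at 2.08 and 1.57 RPKM, and its interval of the ratio, 0.446 to 1.25, held 1, so no difference was detectable at this depth. Ccr1 was the receptor with the largest difference of those compared, at 30.3 RPKM in control against 12.1 RPKM in mutant (chromosome 9, 123962124 to 123968692; ratio 0.399, interval 0.378 to 0.422), and the 1 receptor past the 2-fold rule.

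Ligands of the CXC family differed among themselves. Cxcl16, a membrane-bound ligand that binds CXCR6, was at 10.3 RPKM in control against 4.61 RPKM in mutant, at -1.005 the member nearest to the 2-fold limit among those past it, and it no longer passed once the trend with length and GC content was taken out. Its exons overlap those of Zmynd15 on the opposite strand, and no source used here says whether the counting used strand. Cxcr6 was at 13.0 and 10.1 RPKM, 1.29-fold lower. Cxcl1 and Cxcl2, both neutrophil attractants acting through CXCR2, did not share a size of difference: Cxcl1 was at 3.52 and 1.60 RPKM (ratio 0.455, interval 0.334 to 0.606), whereas Cxcl2 was at 20.1 and 19.7 RPKM (ratio 0.981, interval 0.920 to 1.05). The sign of the Cxcl2 difference changed with quantile normalization and when the trend with length and GC content was taken out. Their receptor Cxcr2 was at 1.51 and 1.31 RPKM. Of 7 neutrophil markers compared, all lay below 0, 3 by 2-fold or more, with Ly6g listed at 0 in both genotypes.

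Cxcl10, an interferon-induced ligand of T cells, was at 1.72 RPKM in control against 2.34 RPKM in mutant (ratio 1.36, interval 1.05 to 1.75), and its log2 difference turned from 0.30 to -0.012 after rescaling to the germ cell list. The exons of Cxcl10 overlap Art3 on the opposite strand. Cxcl9, which shares the receptor CXCR3, was at 0.630 and 0.721 RPKM, and Cxcr3 at 3.62 and 2.40 RPKM. The axis of CCR7, which guides lymphocytes and dendritic cells to lymphoid tissue, rested on Ccl21a, at 3.30 RPKM in control against 0.606 RPKM in mutant (ratio 0.184, interval 0.112 to 0.289). Ccl21a has near-identical copies, so reads can be assigned among them and its value is uncertain, while Ccl21b was listed at 0 in both genotypes. Ccr7 was at 0.690 and 0.544 RPKM and Ccl19 at 0.0815 and 0.202 RPKM. Lymphocyte markers had a median of 0.05, with 2 of 10 genes 2-fold lower.

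Ligands with higher mutant values were fewer and lower in level. Ccl17, which attracts T cells through CCR4, was at 2.42 RPKM in control against 4.44 RPKM in mutant, 1.83-fold higher (interval 1.25 to 2.77), with the highest log2 difference of any member compared (0.67). Cx3cl1, or fractalkine, the membrane-bound ligand of the macrophage receptor CX3CR1, was at 4.06 and 5.76 RPKM, 1.42-fold higher (interval 1.29 to 1.56). After rescaling they lay at 0.30 and 0.035, still above 0, as under the other alternatives that gave them a value. Ccl8 was at 1.05 and 1.88 RPKM and Ccl1 at 0.987 and 1.24 RPKM, with intervals of the ratio (0.952 to 3.31 and 0.690 to 2.29) that held 1. Their receptor Ccr8 was at 5.92 and 4.57 RPKM, 1.30-fold lower. Ccl25, a thymus and gut ligand, was at 6.77 and 7.33 RPKM with an interval of 0.927 to 1.26, a difference that turned to -0.30 after rescaling. Its exons overlap Elavl1 on the opposite strand.

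Among the remaining members compared, Ccl27a, a skin chemokine, was at 3.02 RPKM in control against 1.69 RPKM in mutant. Its exons overlap Il11ra1 by only 8 bases, on the opposite strand. Ackr4, the scavenger of CCL19, CCL21 and CCL25, was at 1.99 and 2.38 RPKM (interval of the ratio 1.003 to 1.42), and it too turned below 0, to -0.14, after rescaling. Its exons overlap Acad11 on the opposite strand. The pooled entry of Ccr9 and Gm17200 was at 2.06 and 1.22 RPKM and the pooled entry of Ackr1 and Cadm3 at 0.526 and 0.752 RPKM. The 9 receptors besides Cxcr4 compared had a median of -0.44, with 8 below 0.

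Members that stayed under 1 RPKM numbered 28, of which 18 were above 0.1 RPKM in either genotype. Of those not yet given, the ligand Ccl28 was at 0.126 RPKM in control against 0.353 RPKM in mutant, a ratio of 2.80 (interval 1.75 to 4.60), and Cxcl14 was at 0.449 and 0.273 RPKM. Ccr10, a receptor for CCL27 and CCL28, was at 0.433 and 0.184 RPKM, and the CCR1-like receptor Ccr1l1 at 0.407 and 0.179 RPKM. Both had intervals of the ratio below 1 (0.221 to 0.783 and 0.189 to 0.983). The T cell receptors Ccr4 (0.368 and 0.291 RPKM) and Ccr6 (0.226 and 0.0635 RPKM), the B cell receptor Cxcr5 (0.328 and 0.384 RPKM) and the scavenger Ackr2 (0.309 and 0.209 RPKM) were as low. Cxcl17 was at 0.230 and 0.0635 RPKM, Cxcl3 at 0.152 and 0.0503 RPKM and Ccl22 at 0.117 and 0.128 RPKM, and the pseudogene Ccl19-ps1 was listed at 0 in control and 0.152 RPKM in mutant, which is about 1 read. Cxcl5, Cxcl11, Cxcl13, Cxcl15 and Cxcr1 rested on about 5 reads or fewer in either genotype. In both genotypes 5 members were listed at 0 (Ccl20, Ccl21b, Ccl26, Ccl27b and Ccl19-ps3).

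The makeup of the ligand transcripts differed between the genotypes. The 21 ligands compared, Cxcl12 included, summed to 374 RPKM in control against 162 RPKM in mutant. Ccl2, Ccl24, Ccl7, Ccl3 and Ccl12 held 73.6% of this sum in control and 54.9% in mutant. Ccl2 ranked first in both. Ccl24 went from 18.6% and the second rank to 6.77% and rank 6, and Cxcl2 from 5.37% and rank 6 to 12.2% and the second rank. The share of Cxcl12 was 1.66% in control and 4.44% in mutant. Shares within a genotype do not depend on the scaling between genotypes, and they carry no replicate error here.

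**Figure D3:**
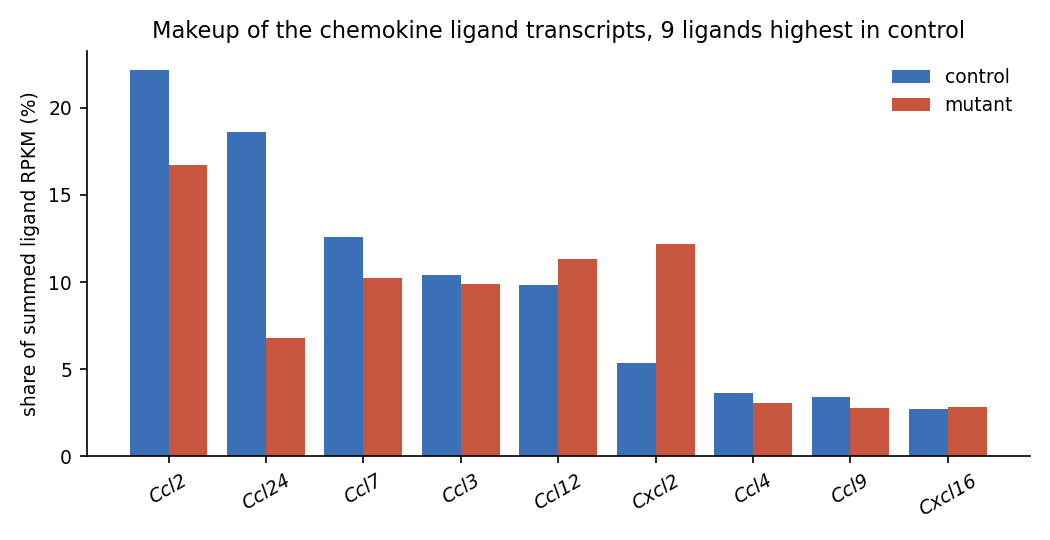
Share of the summed RPKM of the 21 ligands compared (percent), for the 9 ligands highest in control, with blue bars for control and red bars for mutant. The bars of Ccl24 go from 18.6% to 6.77% and those of Cxcl2 from 5.37% to 12.2%.

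Many members lie in gene clusters, and neighbours differed in the size of the difference. On chromosome 11, Ccl2, Ccl7 and Ccl12 were lower in the mutant. Ccl8, which starts 11.8 kb from the end of Ccl12, had a difference of 0.49 on low values, with an interval that held a ratio of 1. Ccl1 (0.17) and Ccl11 (0.14, under 1 RPKM) also lay above 0, again with intervals that held 1. The second group of that chromosome, Ccl5, Ccl9, Ccl6, Ccl3 and Ccl4, lay below 0 throughout, from -1.30 to -0.26. Of the receptor genes on chromosome 9, Ccr1 was at -1.26, Ccr2 at -0.81 and Cxcr6 at -0.34. On chromosome 5, Cxcl1 and Cxcl2 are 10.8 kb apart and had differences of -0.80 and -0.03. On chromosome 8, Cx3cl1 and Ccl17 are 28.0 kb apart, with 0.42 and 0.67, and the third gene there, Ccl22, was under 1 RPKM.

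**Figure D4:**
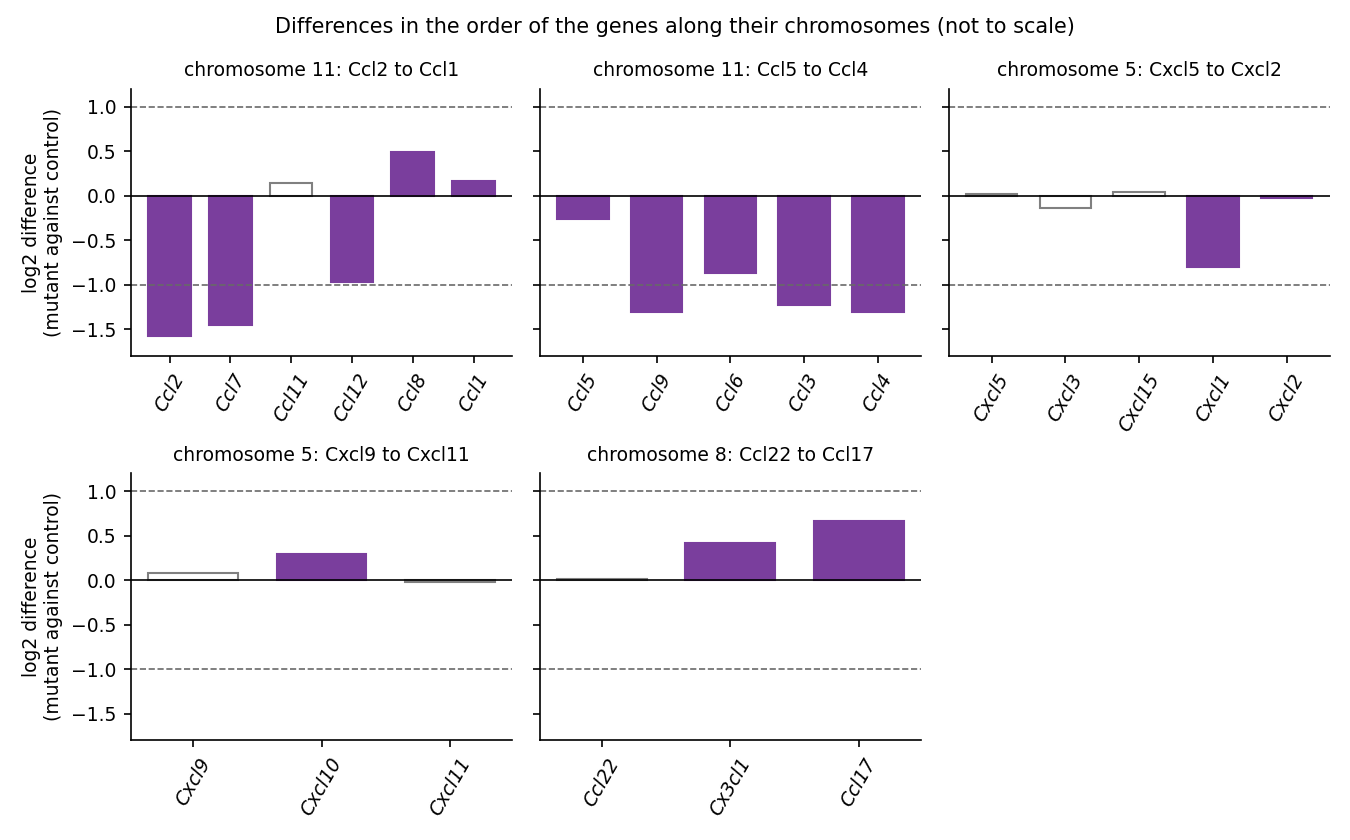
Log2 difference (mutant against control) of members in 5 gene clusters, in the order of the genes along the chromosome and not to scale; filled bars are members compared, open bars are members under 1 RPKM, and dashed lines mark 2-fold. On chromosome 11 the cluster from Ccl5 to Ccl4 is below 0 throughout, and that from Ccl2 to Ccl1 lies on both sides of 0. The chromosome 8 cluster has Cx3cl1 and Ccl17 above 0.

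Genes that act downstream of chemokine receptors had a median of -0.40, against -0.83 for the ligands. Of 55 on the list, 3 were at least 2-fold lower, 0 were 2-fold higher, and 45 lay below 0. Beside this, 8175 of all 16473 genes compared and 6799 of 12198 protein-coding genes lay below 0. A count of 3 in 55 is near the share of 4.35% over all genes compared. The 3 were Rgs10, a brake on G protein signalling, at 90.8 RPKM in control against 34.0 RPKM in mutant, the exchange factor gene Vav1 at 28.6 and 12.8 RPKM, and the leukocyte GTPase gene Rac2 at 31.4 and 14.6 RPKM. The number was 7 with a pseudocount of 0.1, where 6.72% of all genes compared were lower, and 18 with the mutant values rescaled to the germ cell list, where 12.8% were. The G protein gene Gnb1, abundant in both genotypes, was at 290 and 249 RPKM. Above 0 were 10 genes, among them the signal transducer Stat3 (42.9 and 63.5 RPKM), the focal adhesion kinase gene Ptk2 (36.2 and 49.4 RPKM) and Foxo3 (30.5 and 43.9 RPKM). After rescaling 3 lay above 0, Stat3, Foxo3 and Wasl, and Ptk2 did not.

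**Figure D5:**
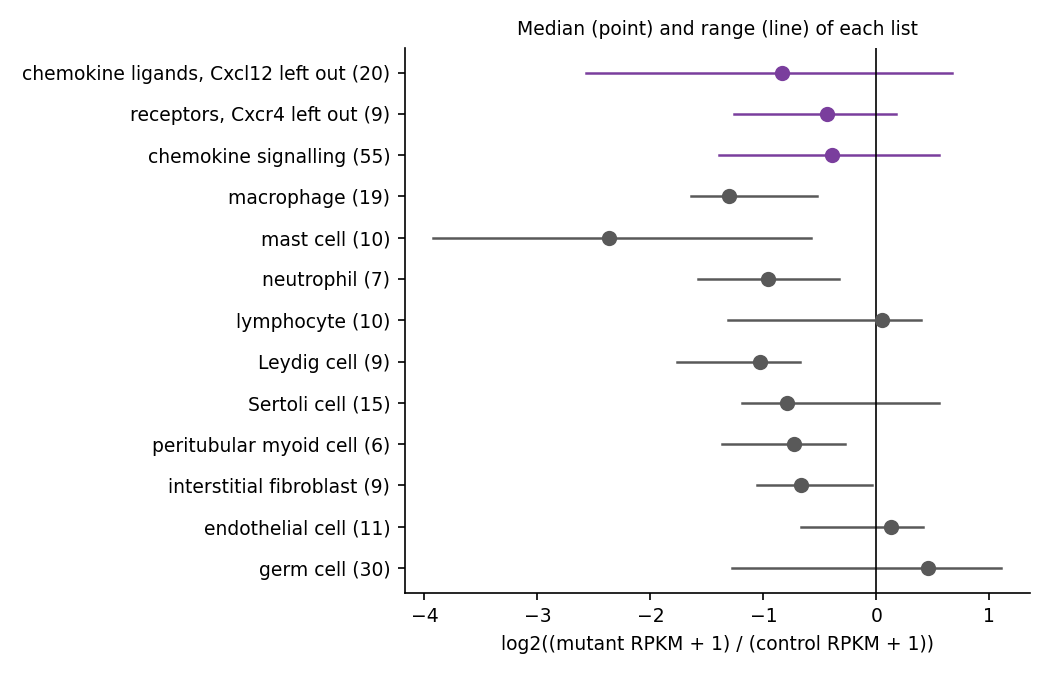
Median (point) and lowest to highest gene (line) of the log2 difference, mutant against control, for chemokine ligands, receptors and signalling genes (purple) and for lists of cell type markers (grey), with the number of genes compared in brackets. Ligands (-0.83) and receptors (-0.44) lie between the macrophage (-1.30) and lymphocyte (0.05) medians, and the germ cell median is at 0.46.

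Markers of the other cells that could hold these transcripts differed by type. Mast cell genes were lower for all 10 compared, 9 of them by 2-fold, and their sum went from 237 to 22.9 RPKM. Leydig cell genes had a median of -1.03, peritubular myoid genes -0.73, interstitial fibroblast genes -0.67 and endothelial genes 0.13. Neutrophil genes had a median of -0.96. Of 5 platelet genes only 2 reached 1 RPKM, Pf4 (-1.70) and Itga2b (-0.35). Their median of -1.03 lies between unlike values and is no measure of platelets. Of 7 dendritic cell markers 2 reached 1 RPKM, with a median of -0.15. The part of any of these cells in the chemokine values was not tested.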

How the data were processed

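For the 4 libraries (2 control, 2 mutant) the submitters' processing notes name TopHat2 2.0.11 and the build GRCm38. No source used here gives the counting program, the annotation or how both libraries were combined. The deposited table gives RPKM per the file headers, in 1 combined column per genotype. With 1 value per genotype no test could be run, and leaving out a library was not possible. Differences were computed as log2((mutant RPKM + 1) / (control RPKM + 1)) with Python 3.11.15, pandas 2.3.3 and NumPy 2.4.6. Genes needed 1 RPKM in either genotype, and 774 entries that pool several symbols were left out of counts. Where a symbol was repeated, the one with the highest mean RPKM was taken. Gene positions, transcript lengths and exon overlaps came from GENCODE M21 on GRCm38.

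Reads were read back from the steps of low values in genes with 1 transcript, where 84.8% of 1523 control and 90.7% of 1510 mutant values lay within 0.1 of a whole read. For a member the length of its longest protein-coding transcript was used. The counting of calls and the search for read steps were tested on simulated data.

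The members and lists were chosen with earlier results of these data known. Named genes are all members at 1 RPKM or more, other members above 0.1 RPKM, and signalling and family genes past 2-fold or highest in level in each direction. Some genes that meet it are not reported here. Members named outside this rule (those listed at 0 and those with 5 reads or fewer) were added after their values were seen. So were Gnb1, Wasl, Gfra1, Sall4, Etv5, Zbtb16, Nanos2, Id4 and the choice of the 4 sequences shown. The marker lists were germ cell, macrophage, mast cell, neutrophil, lymphocyte, dendritic cell, megakaryocyte and platelet, Leydig cell, Sertoli cell, peritubular myoid cell, interstitial fibroblast and endothelial cell. Alternatives were other pseudocounts (0.1, 0.5) and filters (none, 5 RPKM), quantile normalization, rescaling to the germ cell list, removal of the trend with length and GC, and keeping pooled entries.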

Additional observations from a re-analysis of the deposited data

How the results depend on the processing

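No paired analysis was possible because each genotype has 1 combined column, and for the same reason no library could be left out. Rescaling multiplied every mutant value by 0.726 and so moved the median of all genes compared by -0.41. The share of all genes compared that were lower went from 4.35% to 12.8%. It gave 14 members 2-fold lower (the 9 of the main setting and Ccl6, Ccl12, Ccr2, Cxcl1 and Cxcr4), medians of -0.93 for all members compared, -1.21 for the other ligands and -0.75 for the other receptors, -1.07 for Cxcr4, and 18 lower signalling genes with a median of -0.79. It reversed Cxcl12 (-0.21), Ccl25 (-0.30), Ackr4 (-0.14) and Cxcl10 (-0.012). Relative to the shift of all genes, Cxcl12 stayed above the median gene. Without the filter on low values the medians were -0.19 for 53 members and -0.054 for the other ligands, and with 5 RPKM required they were -0.87 and -1.12; these settings change which genes are compared. A pseudocount of 0.1 gave 7 lower signalling genes and 13 lower members, with 6.72% of all genes lower. The members added there were Ackr3, Ccl6, Ccl12 and Cxcl1. Ccl5 reversed to 0.0062 with the length and GC trend removed, and Cxcl2 to 0.0025 there and to 0.0034 with quantile normalization; the cause was not tested. Under the other settings the count of lower members was 8 or 9 and that of higher members 0 in every setting run. The counting intervals of Ccl1, Ccl5, Ccl8, Ccl25, Cxcl2 and Cxcr2 held a ratio of 1, so no difference was detectable at this depth. That of Cxcl2 was narrow, at 0.920 to 1.05.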

Other observations

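Several genes of the chemokine system lie outside the symbol rule. Pf4, the CXC chemokine also called CXCL4, was far above every ligand described, at 895 RPKM in control against 275 RPKM in mutant, 3.26-fold lower. The platelet gene Itga2b was at 3.34 and 2.40 RPKM, and Ppbp, another platelet chemokine, at 0.400 and 0.240 RPKM. Cx3cr1, the fractalkine receptor of macrophages, was at 174 and 81.0 RPKM, 2.15-fold lower, the opposite direction to its ligand Cx3cl1. Mif, a cytokine that also binds CXCR4, was at 295 and 162 RPKM, 1.83-fold lower. Xcl1, a lymphocyte chemokine, was at 25.9 and 25.5 RPKM and lay with Cxcl2 among the ligands with nearly equal values, while its receptor Xcr1 was at 0.649 and 0.598 RPKM. Rarres2, the attractant chemerin, was at 12.3 and 6.66 RPKM, and its receptor Cmklr1 at 13.8 and 8.23 RPKM. Of 7 such genes compared, 2 were at least 2-fold lower and all lay below 0.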
